A study of Arabidopsis thaliana with 6 samples.

Results

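The genes described here encode the core of gibberellin perception in Arabidopsis. They are the receptors GID1A, GID1B and GID1C, the F-box protein SLY1, and the DELLA repressors GAI, RGA, RGL1, RGL2 and RGL3. They were taken by locus identifier, and all 9 have a row among the 33602 genes of each count file and among the 25005 genes of the authors' deposited table. Transcripts were measured by RNA sequencing in whole seedlings at 1 day old, in 3 libraries of the wild type Col-0 and 3 of vil1-1, a line mutated in the VIN3-like gene VIL1. Seeds of both lines spent 3 days in darkness at 4 °C (stratification) and seedlings were grown at 22 °C under 16 h light and 8 h dark. The vil1-1 group is 1 mutant line of 1 allele, so an effect of the allele and of its background cannot be told apart.

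Gibberellin promotes germination and early growth by removing DELLA proteins. The hormone is bound by a soluble GID1 receptor, the loaded receptor grips the amino-terminal part of a DELLA protein, and the F-box protein SLY1 then presents the DELLA to a ubiquitin ligase for destruction. DELLA proteins belong to the GRAS family and act in the nucleus by binding other transcription regulators. RGL2 is known as the main DELLA brake on seed germination, GAI and RGA mainly restrain stem and hypocotyl growth, and RGL3 is known for its link to jasmonate responses. Transcript levels alone do not give protein levels, which also depend on that destruction.

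The 5 DELLA genes differ in the stretch through which GID1 grips the protein, and these coding stretches are shown because that motif defines the family. They are 48 bases long, written 5′ to 3′ along each coding strand from the RefSeq assembly TAIR10.1, with the 5 codons of the DELLA motif in capitals.
GAI (chr1:5149486-5149533, plus strand): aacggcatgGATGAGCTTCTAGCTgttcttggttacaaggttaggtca
RGA (chr2:257177-257224, minus strand): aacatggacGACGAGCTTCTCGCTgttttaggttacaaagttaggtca
RGL1 (chr1:24748411-24748458, plus strand): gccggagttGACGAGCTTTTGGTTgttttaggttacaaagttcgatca
RGL2 (chr3:821112-821159, minus strand): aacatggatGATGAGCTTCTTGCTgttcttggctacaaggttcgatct
RGL3 (chr5:5765750-5765797, minus strand): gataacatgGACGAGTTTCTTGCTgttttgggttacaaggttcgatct
GAI, RGA and RGL2 encode the motif exactly, whereas RGL1 and RGL3 match 4 of its 5 residues. Against RGL2, the 48 bases differed at 10 positions in RGA, 11 in GAI, 12 in RGL3 and 15 in RGL1. Over whole coding sequences, GAI and RGA were the closest DELLA pair, with 82.6% of aligned bases identical, followed by RGL2 and RGL3 with 77.4%. The other 8 DELLA pairs lay between 66.7% and 69.9%. Among the receptors GID1A and GID1C shared 83.8% of aligned bases, and GID1B shared 70.5% with GID1A and 71.0% with GID1C. The longest run of identical bases was 35 between GID1A and GID1C and 30 between GAI and RGA. The sources used here give neither read length nor the treatment of reads that map to several places, so values within these closest pairs carry that uncertainty. No annotated gene overlapped any of the 9.

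With p-values adjusted over every gene in the authors' deposited table and a threshold of 0.05, vil1-1 had higher transcript levels of 3 of the 9 genes, all DELLA genes, and lower levels of none. RGL3 was 2.03-fold higher (95% interval 1.68 to 2.44), RGL2 1.96-fold higher (1.69 to 2.28) and GAI 1.41-fold higher (1.16 to 1.71). Over the 9 genes the SE behind these intervals fell as mean CPM rose, from 0.30 for GID1B at 6.18 CPM to 0.10 for RGA at 77.4 CPM. The intervals may therefore hold little of each gene's own spread between replicates. As background, 3.56% of all genes in the authors' deposited table were called higher and 3.58% lower, and of the 11169 genes within the range of the members' own levels 5.05% were called higher. By unadjusted p under 0.05 the count was 4 of the 9, all higher, against 7.75% of all genes higher and 17.0% in either direction. In RNA from whole seedlings a higher share of cells of a type and more RNA per cell cannot be told apart. No member was called from the shallow count files.

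**Figure D1:**
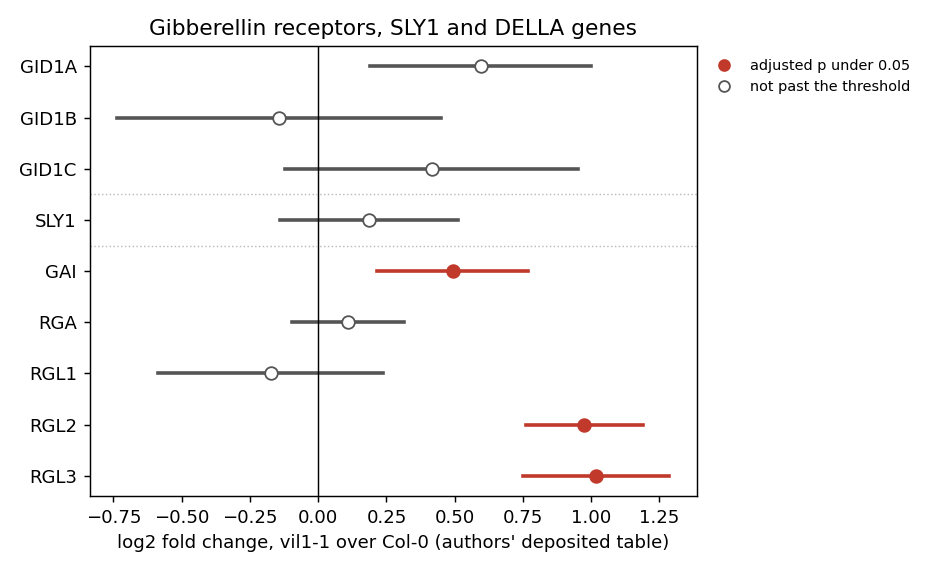
Log2 fold changes of vil1-1 over Col-0 in the authors' deposited table for the receptors, SLY1 and the DELLA genes (points), with 95% intervals computed from the table's F values (lines). RGL3 at 1.02, RGL2 at 0.97 and GAI at 0.49 are filled, and the other 6 genes did not pass the threshold.

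Among the receptors, none passed the threshold in the authors' deposited table. GID1A (AT3G05120, chromosome 3, 1430363 to 1432844, plus strand, TAIR10.1) came closest, with a log2 fold change of 0.60 (95% interval 0.19 to 1.00) and an adjusted p of 0.0547 (0.00403 before adjustment) in the authors' deposited table. It passed at an adjusted p of 0.0441 when genes with a mean log2 CPM under 0 were left out of the adjustment. GID1C (AT5G27320, chromosome 5, 9628990 to 9631291, plus strand) had 0.42 in the authors' deposited table, with an interval from -0.12 to 0.95 and an adjusted p of 0.484. GID1B (AT3G63010, chromosome 3, 23289243 to 23291486, plus strand) had -0.14, with an interval from -0.74 to 0.45, in the authors' deposited table. For GID1C the interval reaches folds from 0.92 to 1.94, and for GID1B from 0.60 to 1.37.

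SLY1 (AT4G24210, chromosome 4, 12563279 to 12564482, plus strand), the F-box subunit that recognises DELLA proteins, stood at 0.19 on the log2 scale in the authors' deposited table (95% interval -0.14 to 0.51, adjusted p = 0.63). Its interval ends below a doubling but includes a rise of the size of GAI's point value. That interval may hold little of the spread between replicates. Of the other ubiquitin ligase subunits, 0 of 5 were called in the authors' deposited table (1 of 5 at an unadjusted p under 0.05), with a median of 0.12 on the log2 scale. CUL1, the cullin scaffold, had the smallest p of them, with 0.25 and an adjusted p of 0.0924 in the authors' deposited table.

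Of the 5 DELLA genes, 3 were called in that comparison. RGL2 (AT3G03450, chromosome 3, 819337 to 821652, minus strand) was at 0.97 on the log2 scale in the authors' deposited table (adjusted p = 1.16e-16), at position 133 of 25005 when genes are ordered by p. RGL3 (AT5G17490, chromosome 5, 5763989 to 5766246, minus strand) had 1.02 there (adjusted p = 9.24e-12), at position 206. GAI (AT1G14920, chromosome 1, 5148982 to 5151415, plus strand) had 0.49 in the authors' deposited table (adjusted p = 0.00988), at position 1210, a call that Holm adjustment did not keep. Intervals of RGL2 and RGL3, the DELLA pair next in coding identity after GAI and RGA, covered nearly the same range, 0.76 to 1.19 and 0.75 to 1.29.

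RGA (AT2G01570, chromosome 2, 255247 to 257568, minus strand), the closest relative of GAI, was at 0.11 on the log2 scale in the authors' deposited table, with an interval from -0.09 to 0.32 and an adjusted p of 0.669. That interval ends below the lower bounds of RGL2 and RGL3 and overlaps that of GAI, but these intervals may hold little of the spread between replicates. RGL1 (AT1G66350, chromosome 1, 24748105 to 24750186, plus strand) had -0.17 there, with an interval from -0.59 to 0.24 and an adjusted p of 0.684. Differences between the DELLA genes in their response were not tested, since the authors' deposited table holds 1 value per gene.

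The count files show the same genes library by library, in a shallow sample. The libraries held 46917 to 66546 gene counts, so a single count was worth 15.0 to 21.3 CPM (counts scaled to a library total of 1000000). The upper limit behind a 0 is 3 counts, or 45.1 to 63.9 CPM by library, for counting error only. VIL1 itself had 0 counts in all 6 libraries, which leaves the genotype labels unchecked by the count files. The authors' deposited table lists VIL1 at 14.2 CPM and lower in vil1-1, by -0.91 on the log2 scale (adjusted p = 0.000309). Of the 9 genes, 8 had at least 1 count, with 50 counts together, and none passed edgeR's default filter on low counts, which kept 942 genes of which 3.72% were called. Without that filter, edgeR's quasi-likelihood test called 0 of the 8 detected genes, against 0.141% of all 14869 genes tested. At an unadjusted p under 0.05 it had 0 of the 8, against 3.6% of all genes tested. DESeq2 and limma-voom called 0 of the 8 as well, against 6 and 83 of all 14869 genes tested, so few calls were to be had.

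In replicates 1, 2 and 3 of Col-0, RGL2 gave 1, 0 and 3 counts (20.5, 0 and 46.5 CPM), and in those of vil1-1 it gave 2, 7 and 1 counts (42.6, 142 and 15.8 CPM). The groups overlap, and vil1-1 replicate 2 holds 7 of the 10 mutant counts. The mean of RGL2 was 22.3 ± 23.3 CPM in the wild type and 66.8 ± 66.4 CPM in the mutant (SD, n = 3 libraries). By edgeR this was 1.40 on the log2 scale (SE 0.87, adjusted p = 0.772), and 0.25 without vil1-1 replicate 2. Pooled over libraries the ratio was 2.82, with an exact 95% counting interval from 0.813 to 12.3. That interval includes the fold of the authors' deposited table as well as no difference.

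For RGL3 the wild-type libraries gave 1, 0 and 0 counts and the mutant ones 0, 0 and 3. All 3 mutant counts lie in vil1-1 replicate 3, and both groups are at or under the 3 counts that a 0 allows, so no fold is given. RGL1 was seen with 0, 1 and 1 counts in the wild type alone, again at or under that limit.

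GAI gave 0, 2 and 2 counts in the wild type and 1, 3 and 1 in the mutant, with means of 20.3 ± 17.6 and 32.6 ± 24.5 CPM (SD, n = 3 each). These groups overlap, and edgeR put the difference at 0.45 on the log2 scale (SE 1.05, adjusted p = 0.899). RGA gave 2, 4 and 4 counts in the wild type and 0, 2 and 4 in the mutant, with means of 54.3 ± 11.6 and 34.6 ± 32.0 CPM (SD, n = 3 each). Here too the groups overlap, with 63.2 CPM in vil1-1 replicate 3 the highest of the 6, and edgeR gave -0.55 on the log2 scale (SE 0.80, adjusted p = 0.819).

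The receptors were at the edge of detection. GID1A had 0 counts in each Col-0 library and 1, 0 and 1 in vil1-1, GID1B had 1 count in Col-0 replicate 2 alone, and GID1C had none in any library. SLY1 had 1 count in replicate 3 of each group. For these genes both groups are within the limit that a count of 0 allows, and no difference was detectable at this depth.

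**Figure D2:**
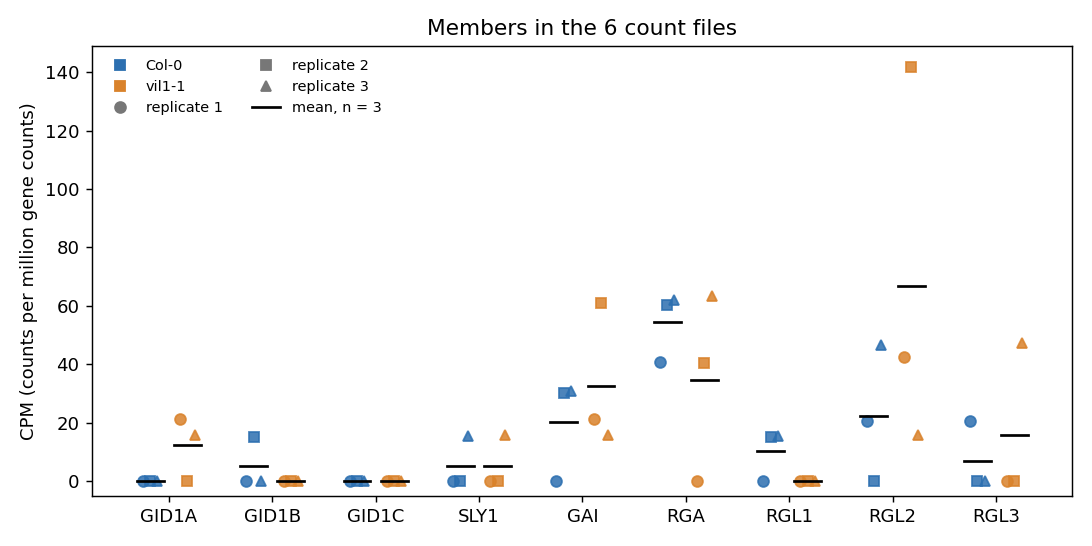
CPM of each gene in the 3 Col-0 and 3 vil1-1 libraries (symbols for replicates) with group means (black lines). RGL2 reaches 142 CPM in vil1-1 replicate 2, GID1C is at 0 throughout, and the groups overlap for GAI, RGA, RGL2 and RGL3.

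Added up, the 5 DELLA genes gave 4, 7 and 10 counts in the wild-type libraries and 3, 12 and 9 in the mutant ones, or 114.0 ± 37.3 and 149.8 ± 89.9 CPM (SD, n = 3 each). The groups overlap, and the difference of 35.8 CPM became -10.9 CPM without vil1-1 replicate 2. The intervals of the shares within this pool overlap between the groups. RGL2 and RGL3 gave 5 of 21 DELLA counts in Col-0, or 23.8% (exact 95% binomial interval 8.22% to 47.2%), and 13 of 24 in vil1-1, or 54.2% (32.8% to 74.4%). These intervals cover counting error only, and 7 of the 13 mutant counts lie in vil1-1 replicate 2. GAI and RGA together gave 2, 6 and 6 counts in the wild type against 1, 5 and 5 in the mutant. For the 3 GID1 genes the sums were 1 count and 2 counts.

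Levels per length placed 2 DELLA genes on top. In the authors' deposited table, whose mean CPM covers both genotypes, RGA stood at 33.4 CPM per kb of exon and RGL2 at 30.2, followed by SLY1 at 17.7, RGL3 at 16.5 and GAI at 13.3. GID1A at 6.89, RGL1 at 6.08, GID1C at 4.02 and GID1B at 3.03 CPM per kb closed that order in the authors' deposited table. Per kb of coding sequence SLY1, whose untranslated parts make up most of its short transcript, moved to the top with 46.7 CPM, ahead of RGA at 43.9 and RGL2 at 42.5 CPM. In the count files RGL2 (19.2 ± 21.9 CPM per kb) and RGA (19.1 ± 10.4; SD, n = 6 libraries of both genotypes) also led, ahead of GAI (10.9 ± 8.33). Every pair of neighbours in that order overlapped over the 6 libraries, so the counts do not separate their levels. RGA and RGL2 made up 33.7% and 30.5% of the summed CPM of the 5 DELLA genes in the authors' deposited table, RGL3 16.2%, GAI 14.1% and RGL1 5.52%.

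**Figure D3:**
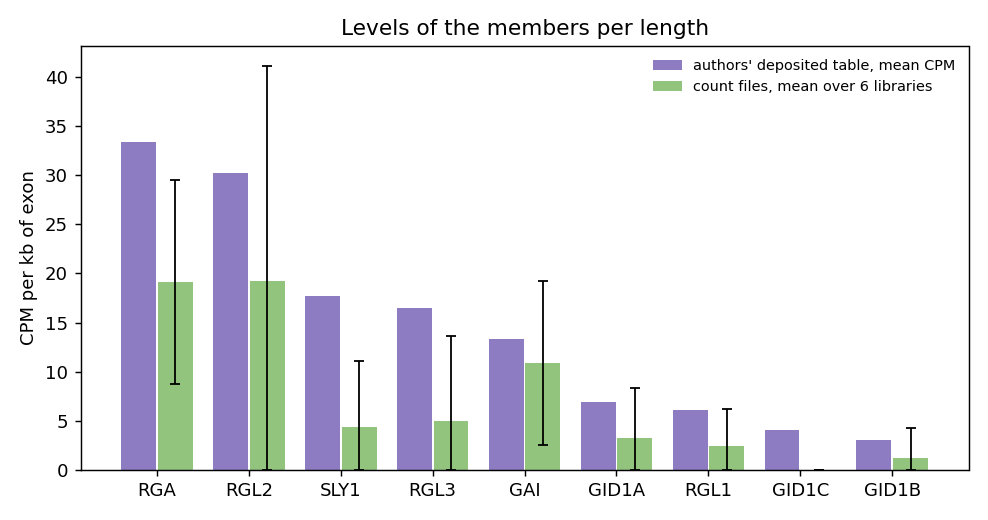
Level of each gene in CPM per kb of exon, in the authors' deposited table (purple, 1 value per gene over both genotypes) and in the count files (green, mean over 6 libraries, bars show SD and are clipped at 0). RGA and RGL2 lead in both, and GID1C has no count in the files.

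The count files held fewer counts of all 9 genes than the levels of the authors' deposited table would give at the same library totals, 50 against 94.2. RGL3 had 4 counts where that level would give 12.6, SLY1 2 against 7.23 and RGA 16 against 26.3. The median ratio of counts to that expectation was 0.592 over the 5214 genes at 30 CPM or more in the authors' deposited table. GA3OX2, a gibberellin synthesis gene named here after its value was seen, went the other way. It stood at 253.8 CPM in the authors' deposited table. In the count files it gave 1046 of 1063 gibberellin synthesis counts in Col-0 and 947 of 963 in vil1-1. The gibberellin synthesis genes summed to 4833 to 6773 CPM in the Col-0 libraries and 5168 to 7375 CPM in the vil1-1 libraries. The sources used here do not say how the authors' deposited table relates to these count files.

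Promoters of the 3 DELLA genes that were higher in the authors' deposited table are shown because these genes moved together there. Each is the 250 bases before the annotated gene start in TAIR10.1, 5′ to 3′ along the gene's strand. Capitals mark ACGTG (the core of abscisic acid response elements), CATGCA (the RY element bound by seed regulators such as ABI3) and TTGAC (the core of W-boxes bound by WRKY factors), on either strand.
GAI (chr1:5148732-5148981, plus strand): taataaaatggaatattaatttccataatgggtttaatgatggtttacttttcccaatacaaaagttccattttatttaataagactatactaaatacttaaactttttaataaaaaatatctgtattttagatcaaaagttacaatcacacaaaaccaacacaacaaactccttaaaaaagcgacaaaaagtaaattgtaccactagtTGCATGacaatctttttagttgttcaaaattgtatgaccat
RGL2 (chr3:821653-821902, minus strand): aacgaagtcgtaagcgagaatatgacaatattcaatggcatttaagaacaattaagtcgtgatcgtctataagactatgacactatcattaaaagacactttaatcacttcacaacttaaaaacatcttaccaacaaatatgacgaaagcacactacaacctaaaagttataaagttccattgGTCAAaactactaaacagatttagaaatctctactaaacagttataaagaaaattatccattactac
RGL3 (chr5:5766247-5766496, minus strand): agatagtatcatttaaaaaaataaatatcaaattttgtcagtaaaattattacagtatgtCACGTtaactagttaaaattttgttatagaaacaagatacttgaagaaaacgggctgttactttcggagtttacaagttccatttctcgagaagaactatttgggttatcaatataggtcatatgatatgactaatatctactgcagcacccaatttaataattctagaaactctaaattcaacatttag
GAI holds CATGCA on the opposite strand at -41 to -36 from its start, RGL2 holds TTGAC on the opposite strand at -67 to -63, and RGL3 holds ACGTG on the opposite strand at -190 to -186. The 3 promoters thus share none of these motifs. Of all 26711 protein-coding promoters of that length, 23.1% hold ACGTG, 8.51% CATGCA and 45.0% TTGAC. Over the 9 genes, ACGTG was found in 5 (RGL3, SLY1 and the 3 receptors), TTGAC in 4 and CATGCA in 2. The G-box CACGTG, which contains ACGTG, was in none of the 9 and in 6.58% of all promoters.

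Genes that act with or after the DELLA proteins moved both ways. Of 12 regulators that DELLA proteins bind, the authors' deposited table had 3 higher and 2 lower, and their median was 0.13 on the log2 scale against -0.05 over all its genes. These calls are 41.7% of that list. As background for it and the lists below, 7.13% of all genes in the authors' deposited table were called in either direction. Among genes within the range of the members' own levels that share was 9.67%. ABI3, the seed maturation factor, was 2.29-fold higher there, ABI5, the abscisic acid response factor of germination, 1.76-fold higher, and NF-YC9, a subunit of the NF-Y complex that binds RGL2 in seeds, 1.39-fold higher. PIF3, a growth-promoting factor that DELLA proteins sequester, was 1.58-fold lower in the authors' deposited table (adjusted p = 6.71e-06). JAZ1, a jasmonate repressor, was the other lower gene at -0.46, named here after its value was seen.

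Of 13 DELLA modifiers and coregulators, BOI, a RING protein that works with DELLA proteins, was higher at 0.58 on the log2 scale in the authors' deposited table (adjusted p = 0.0367), and JKD, one of the zinc finger partners of DELLA proteins, lower at -0.62 (adjusted p = 0.0131). The other 11 did not pass, and the median was 0.09. Among 17 other GRAS family genes, 0 were called in the authors' deposited table (1 at an unadjusted p under 0.05), and their median was 0.13. SCL13 had the smallest p of them there, with 0.50 and an adjusted p of 0.215.

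Of 10 genes known to be induced by DELLA proteins, the authors' deposited table had 2 higher and 0 lower, and their median was 0.44 on the log2 scale. LBD40, a LOB domain factor, was 2.17-fold higher (adjusted p = 2.08e-19) and GA20OX2, a gibberellin synthesis enzyme, 2.75-fold higher (adjusted p = 0.00413) in the authors' deposited table. The count files held 2 wild-type and 5 mutant counts of LBD40 and none of GA20OX2. The remaining 8 did not pass the threshold. GA20OX2 also counts among the gibberellin synthesis genes, of which the authors' deposited table had 2 of 13 higher, the other being GA20OX3 at 1.74. Of 6 gibberellin inactivation genes 0 were called there, also at an unadjusted p under 0.05. GA2OX1 had the smallest p of them, with -1.30 at 1.06 CPM and an adjusted p of 0.682.

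The GASA genes encode small cysteine-rich peptides, several of which respond to gibberellin. The authors' deposited table lists 11 of them, with 2 higher and 1 lower. GASA6, a peptide known to promote germination, was 2.46-fold higher there (adjusted p = 5.41e-40), with 18 counts in Col-0 and 34 in vil1-1. GASA1 was 1.38-fold higher, with 4 and 13 counts, and GASA7 was 3.31-fold lower in the authors' deposited table. With 1 count of GASA7 in each group, the count files can neither show nor exclude that drop. The median of the 11 was -0.08.

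**Figure D4:**
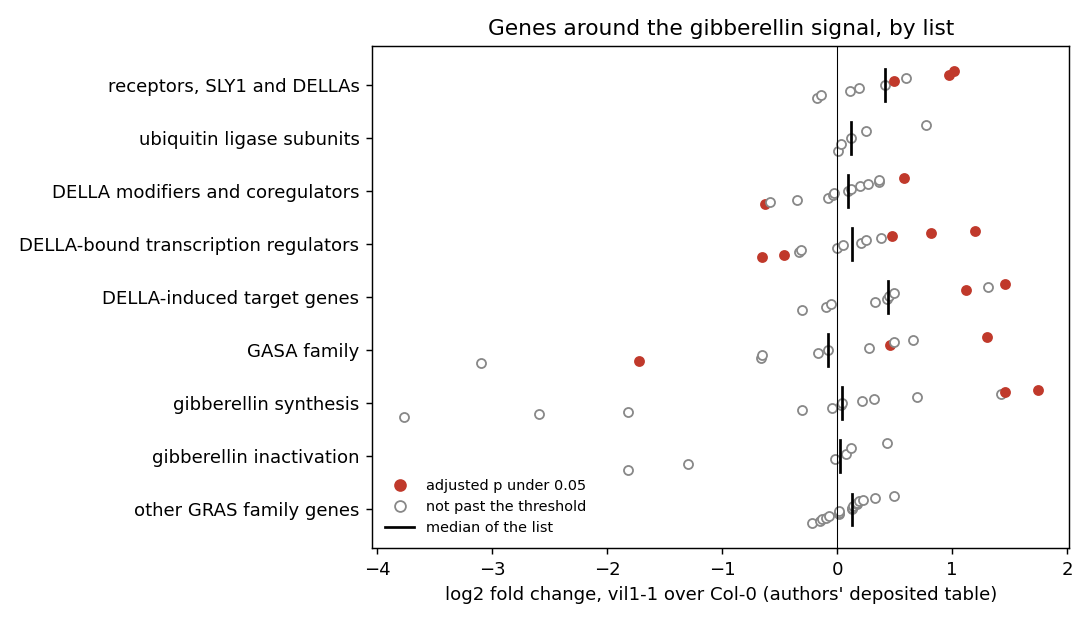
Log2 fold changes of vil1-1 over Col-0 in the authors' deposited table for the receptors, SLY1 and DELLA genes and for 8 lists around them (1 point per gene, filled where adjusted p is under 0.05, black line at the list's median). Medians run from -0.08 for the GASA family to 0.44 for DELLA-induced targets, and called genes lie on both sides of 0 among DELLA-bound regulators.

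Markers of the tissues a germinated seedling holds were read beside these values. In the authors' deposited table the embryo storage genes CRA1, CRC and SESA1 were all higher (3 of 3, with a median of 0.98 on the log2 scale). In the count files they summed to 15.0 to 61.4 CPM in the wild-type libraries and 20.3 to 107 CPM in the mutant ones. Those ranges overlap and rest on 7 and 10 counts. Root hair markers were lower in the authors' deposited table (3 of 4, median -1.29). Their sums of 15.0 to 20.5 and 0 to 21.3 CPM rest on 3 counts in Col-0 and 1 in vil1-1. Both groups are within the limit that a count of 0 allows, so these counts show no direction. Of 4 photosynthesis markers 0 were called, but 2 had an unadjusted p under 0.05 in the authors' deposited table, against 17.0% of all genes. Those 2 went opposite ways there, at 0.12 and -0.18 on the log2 scale. In the count files the 4 summed to 2788 to 2988 CPM in the wild type and 3040 to 3176 CPM in the mutant. The ranges of that sum do not overlap, and its difference was not tested. With 3 libraries per group such a gap can arise by chance. RBCS1A gave most of the sum, 405 of 513 counts in Col-0 and 385 of 499 in vil1-1. Endosperm markers (0 of 3 called) stood at 77.5 to 135 and 0 to 182 CPM, and seed coat markers (0 of 4 called) at 75.1 to 108 and 42.6 to 111 CPM. Each sum was nearly all 1 gene. EPR1 gave 18 of 18 endosperm counts in Col-0 and 14 of 15 in vil1-1. MUM4 gave 16 of 16 and 11 of 12 seed coat counts. The amount of either tissue was therefore not tested. The defining markers ZOU, BAN and TT10 had 0 counts in all libraries. The part of embryo storage and root hair differences in the DELLA values was not tested.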

How the data were processed

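Transcripts were measured in 3 Col-0 and 3 vil1-1 libraries, grouped and numbered by the sample titles. The submitters' processing notes name the tools Bowtie2, featureCounts and edgeR and the build TAIR10. Each deposited count file lists raw counts by gene for 1 library. Per the file headers, the authors' deposited table gives log2 values (fold change and mean CPM), the F statistic as a score, and an unadjusted p-value. Library kit and strand setting were not given in the sources used here.

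The p-values were adjusted here by Benjamini-Hochberg over all 25005 genes. The SE of a fold change was taken as its absolute log2 value over the root of F, and 95% intervals assume a normal error, since the p-values matched those of chi-square with 1 df to within 0.002 (log10) for the 24290 genes with F under 20. These values carry no SD or n.

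Counts were tested with edgeR 4.0.16 (quasi-likelihood, TMM, R 4.3.3, genotype as the only term), with its default filter, which kept 942 genes and called 35, and over all 14869 genes with a count. CPM uses library totals. Ratios of pooled counts and shares of DELLA counts have exact binomial intervals, which cover counting error only. The code was tested on simulated data in which only genes with more counts than any of the 9 were changed. That test therefore does not cover genes at the members' depth. Lengths, sequences and coordinates come from RefSeq's TAIR10.1 genome and annotation, matched by locus for all 9 genes. Coding sequences were aligned globally with Biopython 1.88.

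Members and lists were chosen with earlier results of these data known. Named genes are the 9 members, VIL1, and from each list up to 4 genes called in the authors' deposited table, by smallest p, or 1 gene where none was called. Genes of like pattern were to be named for members past the default filter, and there were none. Alternatives were DESeq2 1.42.0, limma-voom (limma 3.58.1), other normalizations and filters, a replicate block, single libraries left out, other adjustments and coding length.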

Additional observations from a re-analysis of the deposited data

How the results depend on the processing

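Across all genes, edgeR called 35 from the counts, 8 with DESeq2, 21 with no filter, 19 to 36 with 1 library left out in turn (19 without vil1-1 replicate 2) and 7 without Col-0 replicates 2 and 3 together, a setting chosen after seeing the data because those libraries had the most counts at near-silent genes. That setting leaves 1 Col-0 library, takes it to vary like the vil1-1 libraries and tests fewer samples, so its count shows no dependence on those 2 libraries in particular. With the replicate number as a block edgeR called 35. Same-numbered libraries did not deviate together (correlations of 0.079, -0.033 and 0.019). At this depth counting error may hide a shared deviation, so a pairing by number was neither shown nor excluded. No member was called from the counts in any setting that gave it a value, and the default filter gave none. As background, the fits of all 6 libraries without a filter called from 6 (DESeq2) to 83 (limma-voom) of 14869 genes. With 1 library left out, log2 fold changes from the counts ran from 0.25 to 2.54 for RGL2, from -1.38 to -0.06 for RGA and from -0.28 to 0.79 for GAI, which turned negative without Col-0 replicate 1 (-0.01) and without vil1-1 replicate 2. The summed DELLA difference ran from -10.9 to 78.7 CPM and the summed GID1 difference from 2.89 to 13.5 CPM. In the authors' deposited table, calls over all genes fell from 1784 to 629 with Holm adjustment. RGL2 and RGL3 stayed called under each adjustment and threshold tried there, GAI lost its call with Holm, and GID1A gained one when genes under a mean log2 CPM of 0 were left out. Per coding length SLY1 moved from 4.33 to 11.4 CPM per kb in the counts. Depth limits the count files: the members hold 50 counts over 6 libraries.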
